A study of Rattus norvegicus with 10 samples.

Results

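Blebbistatin-treated and untreated electrically pulsed cultures of newborn rat heart muscle cells were compared within culture series. The comparison used 6 of the 10 arrays of the study: the 3 arrays of pulsed cultures with blebbistatin and the 3 pulsed arrays whose titles carried the same date. A shared date was read as a shared culture series, which the labels do not state. The cells were ventricular cardiomyocytes of Lewis rats 0 to 3 days old, kept in primary culture and, after a recovery phase, paced for 3 days at 1 Hz and 2 V/cm. The pulsed group received pulses alone (n = 4 arrays, of which 3 have a blebbistatin partner), and the blebbistatin group received the same pulses with 10 µmol/L blebbistatin (n = 3). The other group, kept without pulses or drug (nonpulsed, n = 3), entered the statistical fit but not the paired differences. The series are numbered 1 to 4, and series 2, 3 and 4 held both arrays of a pair. Each array held equal parts of RNA from a duplicate of the experiment, and arrays of a group differ by isolation and culture. There was no array of nonpulsed cells with blebbistatin, so effects of blocked contraction and other effects of the drug cannot be told apart. Values are log2 levels of Affymetrix probe sets, differences are blebbistatin minus pulsed on the log2 scale, and precision is limited by how few arrays there are.

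Blebbistatin is a small molecule that binds the motor domain of class II myosins and holds them in a state with weak affinity for actin. It acts on sarcomeric myosin, which drives the heartbeat, and on nonmuscle myosin II, which tenses stress fibres, focal adhesions and the contractile ring of dividing cells. Electrical excitation and calcium release go on when the motor is blocked, which is why the drug is used to uncouple excitation from contraction. Tension on the actin cytoskeleton is known to feed into transcription through SRF with its myocardin-related cofactors, which sense free actin, and through YAP and TAZ with TEAD factors. Both routes act on genes of the cytoskeleton and the extracellular matrix.

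The labelled cell type was borne out by its markers, of which Tnnt2, cardiac troponin T, and Myh6, the alpha myosin heavy chain, had mean levels of 13.39 and 13.38 in the 4 pulsed arrays. Fibroblast transcripts were also present, with Col1a1 at a mean of 13.34 in pulsed arrays. In such bulk samples, fewer cells of a type and less RNA per cell cannot be told apart. The summed level of the 11 cardiomyocyte markers tested spanned 16.3 to 16.54 in pulsed and 16.38 to 16.44 in blebbistatin arrays. The highest level was at least 13.9 in each array, and 87 genes, Myh6, Tpm1 and Col1a1 among them, had a mean level of at least 13. The SD of their paired differences was at most 0.164 in a series, less than over all genes (0.316 to 0.403), and whether differences are compressed at these levels was not tested. Of the genes named by rule, 31 had a further probe set above the low-value filter, and for 17 it differed from the one used by over 0.5 in some pair. Median levels of the arrays lay between 6.57 and 6.78. Polyadenylated spike-in controls, added before labelling, differed by 1.46 in series 2, 0.09 in series 3 and -0.64 in series 4, and their part in the results was not tested. The 3' minus 5' signal of GAPDH, a sign of RNA quality, was 0.13, 0.09 and 0.05 higher with blebbistatin in the 3 pairs, that of beta-actin 0.09, 0.04 and -0.03.

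Of 18393 genes and unnamed probe sets tested, 3 passed at a Benjamini-Hochberg adjusted p under 0.05 (0.0163%) in limma with culture series as a block, 1 higher (0.00544%) and 2 lower (0.0109%). Nmrk2, which encodes a nicotinamide riboside kinase of striated muscle, rose. Ptgis, which encodes prostacyclin synthase, fell, and so did Clec3b, which encodes the plasminogen-binding protein tetranectin. At an unadjusted p under 0.05 there were 1146 higher (6.23%) and 1030 lower genes (5.6%). The fitted change was positive for 55.7% of genes, and its median over all genes was 0.02. Fitted on only the 6 paired arrays, limma passed 0 genes, with a smallest adjusted p of 0.0617. Series 1 has no blebbistatin array, but its pulsed and nonpulsed arrays enter the fit of both the change and the spread. For Tuba8, described below, the fitted change was 0.95 with series 1 and 1.14 without it. Without series 1 limma passed 30 genes (0.163%), 10 higher (0.0544%) and 20 lower (0.109%), among them the same 3. Without series 2 or without series 3 it passed 0, and without series 4 it passed 1.

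Nmrk2 had pulsed levels of 6.78, 8.02 and 5.82 in series 2, 3 and 4, and blebbistatin levels of 8.44, 9.80 and 7.31. Its level differed widely between series, so that the groups overlapped, but the paired differences of 1.66, 1.78 and 1.49 lay close together (limma change 1.66, SE 0.11, adjusted p = 0.0168). The unpaired pulsed array of series 1 was at 5.72. Ptgis lay at 10.68, 10.75 and 10.63 in the pulsed arrays of these series, at 11.04 in series 1, and at 9.37, 9.35 and 8.93 with blebbistatin. No blebbistatin array reached the pulsed range, and the differences were -1.30, -1.40 and -1.70 (limma change -1.49, SE 0.11, adjusted p = 0.0229). Clec3b lay at 6.45, 7.42 and 9.42 in pulsed and at 4.96, 5.75 and 8.03 in blebbistatin arrays, with 9.17 in the pulsed array of series 1. As for Nmrk2, the series set its level and the groups overlapped, with differences of -1.49, -1.67 and -1.40 (limma change -1.55, SE 0.13, adjusted p = 0.0307). A second probe set of Clec3b did not show this, at -0.01, -0.09 and -0.06.

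**Figure D1:**
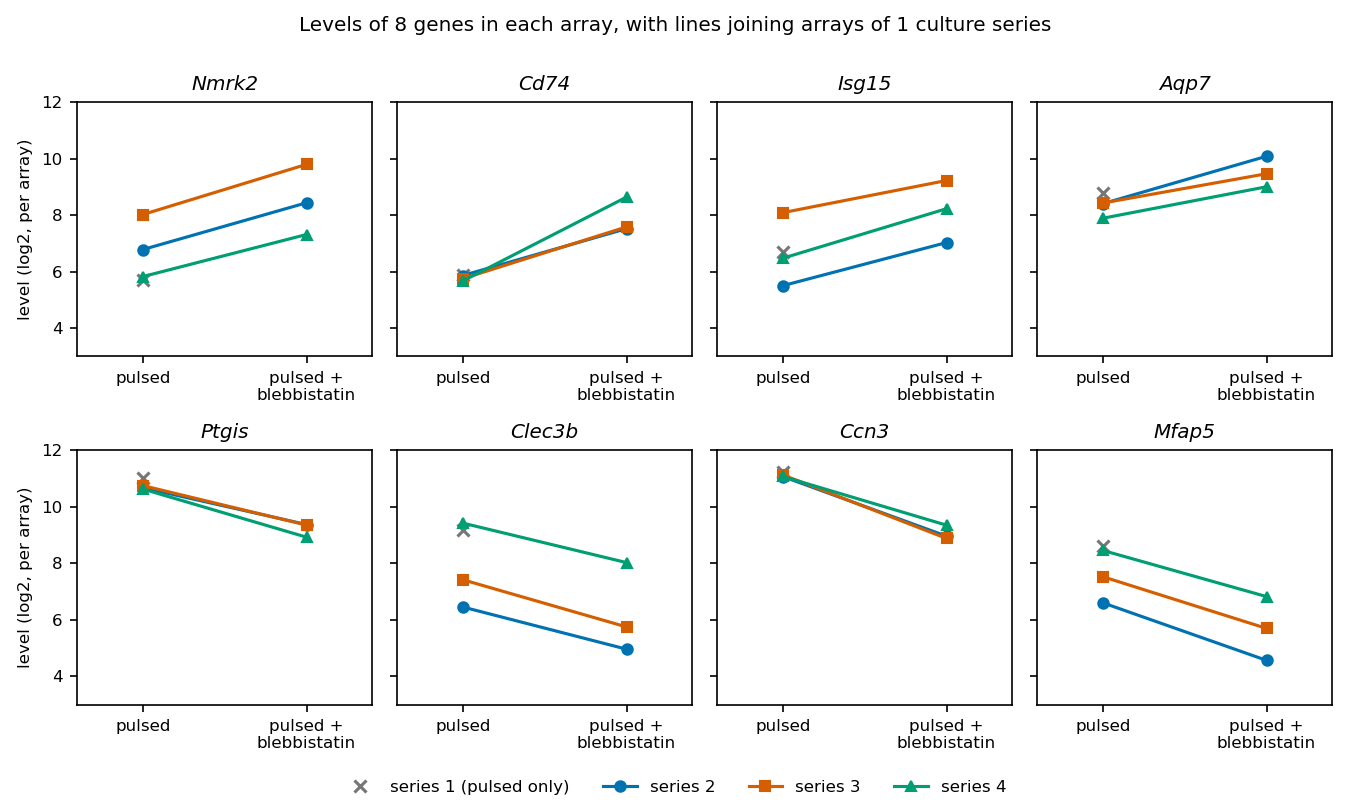
Level of 8 genes (log2, vertical axis) in each pulsed and blebbistatin array (horizontal axis), with a line joining the arrays of 1 culture series and a cross for the unpaired pulsed array of series 1. Lines of Nmrk2, Clec3b and Mfap5 run nearly parallel at different heights, while pulsed levels of Ptgis, Ccn3 and Cd74 lie close together, Cd74 between 5.67 and 5.88.

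A difference of at least 2-fold in all 3 pairs was found for 30 genes, 9 higher (0.0489% of those tested) and 21 lower (0.114%). At 1.5-fold there were 45 higher (0.245%) and 92 lower (0.5%). In the same direction, whatever the size, were 4436 higher (24.1%) and 2783 lower genes (15.1%). List counts below of members with 1 direction in all pairs are to be read against these shares. Of the 30 genes, the 3 blebbistatin arrays lay above the 4 pulsed arrays for 6 of 9 higher genes (6.34% of all genes tested) and below them for 14 of 21 lower genes (3.69%). Those shares describe the genes and are no test, since the same arrays chose them. All but Nmrk2, Ptgis and Clec3b of the genes in the next paragraphs missed the adjusted threshold in the fit of all 10 arrays.

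Several of the lower genes encode secreted or cell surface proteins. Ccn3, a matricellular protein of the CCN family, had pulsed levels of 11.07, 11.13 and 11.08 in series 2, 3 and 4 and 11.23 in series 1. With blebbistatin it was at 8.96, 8.88 and 9.35, below all pulsed arrays (limma change -1.87, SE 0.26, adjusted p = 0.0883). Without series 1 its adjusted p was 0.015. Mfap5, a glycoprotein of elastic microfibrils, was at 6.60, 7.53 and 8.46 in the paired pulsed arrays and at 4.56, 5.70 and 6.82 with blebbistatin, and the groups overlapped because its level differed between series (limma change -1.74, adjusted p = 0.065, and 0.015 without series 1). Jag1, a ligand of Notch receptors, differed by -1.61, -2.05 and -1.60 (adjusted p = 0.097, and 0.015 without series 1, by limma).

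Tnfrsf11b, which encodes the decoy receptor osteoprotegerin, differed by -1.54, -2.33 and -2.56. Cemip, needed for the breakdown of hyaluronan, was at 10.58, 10.92 and 11.38 in the paired pulsed arrays and 7.70, 8.08 and 10.05 with blebbistatin. Colec11, a secreted collectin, differed by -1.35, -2.51 and -2.82. For these 3 genes no blebbistatin array reached the pulsed range. Itga11, a collagen-binding integrin subunit, had differences of -1.09, -1.46 and -1.64. Il1rap, the accessory chain of the interleukin 1 receptor, had -1.08, -1.36 and -1.28, but -0.37, -0.39 and -0.14 on a second probe set of like level. Akap5, an anchor of protein kinase A, had -1.17, -1.58 and -1.10. Pdlim3, a protein of the Z-disc and of actin stress fibres, had nearly the same difference in each pair (-1.10, -1.11 and -1.10). Its adjusted p was 0.283 with all arrays and 0.0319 without series 1 (limma), whose pulsed array was at 10.89. Plekhb1 differed by -1.09, -1.14 and -1.36, and its pulsed array of series 1 stood apart at 6.02. Mamdc2 had -1.86, -1.25 and -1.08, with the blebbistatin array of series 2 at the lowest level of the table, where differences are understated.

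Among the higher genes were Cd74 and the interferon targets Isg15 and Oasl. Cd74, the invariant chain of class II histocompatibility molecules, lay at 5.86, 5.75 and 5.67 in the paired pulsed arrays and at 7.52, 7.58 and 8.64 with blebbistatin. Its groups did not overlap (limma change 1.97, SE 0.38, adjusted p = 0.197). Isg15, a ubiquitin-like protein induced by interferon, was at 5.50, 8.09 and 6.48 in pulsed and 7.03, 9.23 and 8.23 in blebbistatin arrays, which overlapped between series. Oasl, a related interferon target, differed by 1.35, 1.30 and 0.77. Aqp7, a channel for water and glycerol, was at 8.41, 8.43 and 7.89 in pulsed arrays and at 10.09, 9.47 and 9.01 with blebbistatin, and its groups did not overlap (limma change 1.22, adjusted p = 0.0803).

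Acer2, Adss1, Pgam2 and Cyp11a1 encode metabolic enzymes. Acer2, an alkaline ceramidase, differed by 1.45, 1.13 and 3.20. Adss1, the muscle form of adenylosuccinate synthase, differed by 0.84, 1.03 and 0.97. Pgam2, the muscle phosphoglycerate mutase, had 0.83, 0.93 and 1.24, and Cyp11a1, the enzyme that starts steroid synthesis, 0.85, 0.92 and 1.15. Mtfp1, a regulator of mitochondrial fission, differed by 1.01, 0.95 and 1.29. Gsta4 and Osgin1 belong to the oxidative stress response described further on. Tuba8, an alpha tubulin, had 1.11, 1.03 and 1.27, Doc2g 1.1, 1.04 and 1.49, and Tmem179 1.71, 1.46 and 0.99. The pulsed array of series 2 stood apart for Tmem179, at 6.57 against 7.35 to 7.5. Without series 1, Isg15, Aqp7, Tuba8, Tmem179, Mtfp1, Osgin1 and Adss1 passed in limma, with adjusted p between 0.0291 (Tuba8) and 0.0499 (Isg15).

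**Figure D2:**
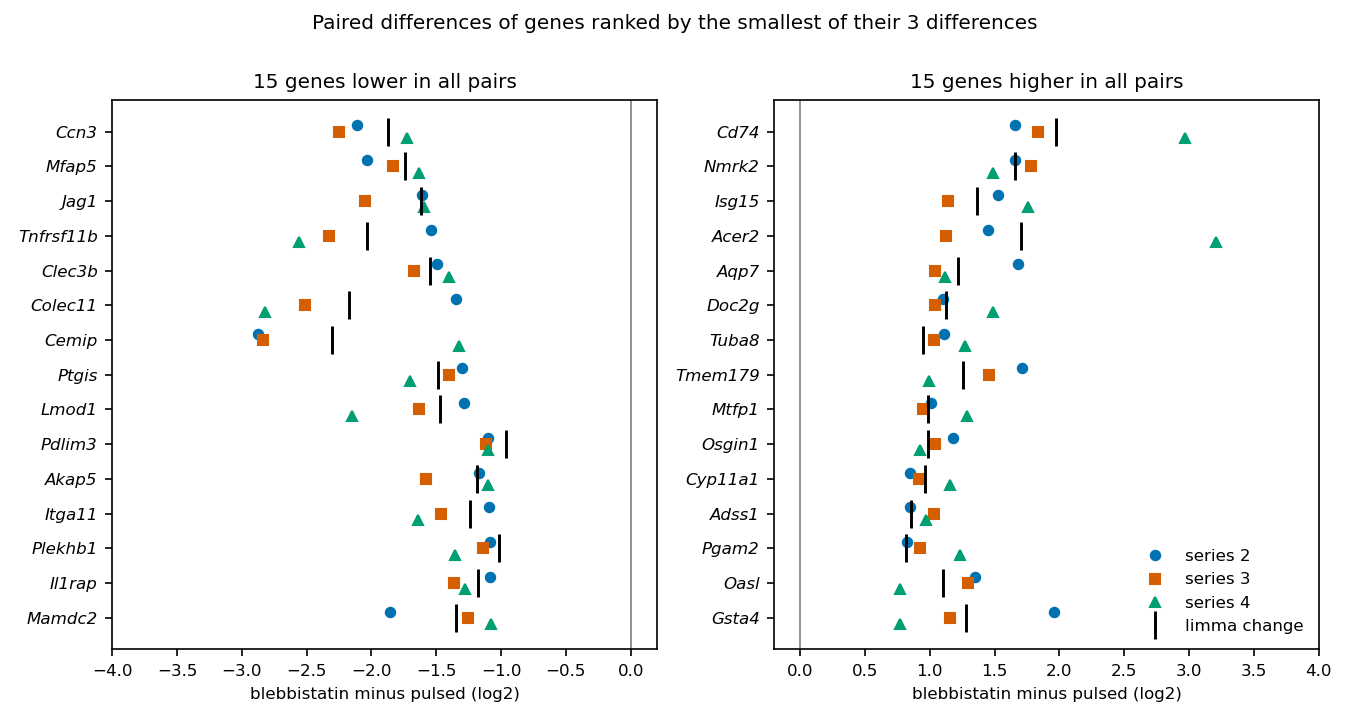
Paired differences (blebbistatin minus pulsed, log2, horizontal axis) of 15 genes that were lower and 15 that were higher in all 3 pairs, ranked by the smallest of their 3 differences. Points are culture series and black bars the limma change. The series 4 differences of Cd74 (2.97) and Acer2 (3.20) stand far above the other pairs, while the 3 values of Pdlim3 nearly coincide.

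Transcripts of the drug's targets and their regulators did not share 1 direction. Of 29 tested genes for myosin II motors, light chains and their regulators, 22 had a negative fitted change, 12 (41.4%) were lower in all 3 pairs and 2, Myh6 and Myl7, were higher, with a median of -0.13. The median differences were -0.21, -0.13 and 0.03, and in series 4 15 members were positive and 14 negative. Myh10, the nonmuscle heavy chain IIB, was at 10.60, 10.92 and 11.20 in the paired pulsed arrays and at 10.17, 10.37 and 10.69 with blebbistatin, so it was lower within each pair while the groups overlapped (limma change -0.46, SE 0.10, adjusted p = 0.258). Myh9, the heavy chain IIA, differed by 0.00, -0.52 and -0.93, and Myh14, the heavy chain IIC, by -0.35, 0.05 and 0.13. Myh11, the smooth muscle heavy chain, had -1.19, -0.95 and -0.71. Ppp1r14a, an inhibitor of myosin phosphatase in smooth muscle, was at 9.37, 9.38 and 9.54 in these pulsed arrays and 8.45, 8.11 and 8.21 with blebbistatin. No blebbistatin array of Ppp1r14a reached the pulsed range (limma adjusted p = 0.207, and 0.0333 without series 1).

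Genes of the actin cytoskeleton, many of them SRF targets, were mostly lower. Of 30 tested, 29 had a negative fitted change and 17 were lower in all 3 pairs, against 15.1% of all genes, and 1 was higher. The list's median differences of -0.23, -0.38 and -0.61 in series 2, 3 and 4 compare with 0.04, 0.01 and 0.05 over all genes. Cnn1, calponin of smooth muscle, was at 10.27, 9.59 and 9.44 in the paired pulsed arrays and at 9.28, 7.40 and 6.57 with blebbistatin. Lmod1, leiomodin, a nucleator of actin filaments in smooth muscle, differed by -1.28, -1.63 and -2.15, Tagln, transgelin, by -0.56, -1.16 and -1.73, and Acta2, smooth muscle alpha actin, by -0.40, -0.74 and -1.07. In these 4 genes the difference was smallest in series 2 and widest in series 4. Probe sets of Tpm1, the main tropomyosin of heart muscle, disagreed. The most abundant, at 13.22, differed by -0.05, 0.04 and 0.09, while 1 at 11.84 had -0.17, -0.69 and -1.04 and 1 at 5.85 had -0.94, -0.70 and -0.84. Srf itself differed by -0.21, 0.19 and -0.64.

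A search of RefSeq promoters (build GRCr8, 250 bases before to 50 after the start, both strands) for the CArG box, the site bound by SRF, found it in 5 of the 26 list members with a promoter entry, against 1.64% of 27457 promoters. Among those 5, Fhl1, a LIM protein of striated muscle, was lower in all pairs (-0.41, -0.31 and -0.26) and its relative Fhl2 was higher (0.01, 0.07 and 0.21), while Actg1, Cnn2 and Srf differed in direction between pairs. The windows of Fhl1 (chrX:139638369-139638428, plus strand) and Fhl2 (chr9:52954601-52954660, minus) are shown, with the box in capitals. Both genes were picked because they hold the box and went opposite ways on the probe sets used, Fhl2 by small amounts. A second probe set of Fhl2, at 12.1, did not share a direction, at -0.11, 0.2 and 0.24. A match is a run of letters and no evidence of binding. The lists searched here and below were chosen as targets of the factor or include such targets, so their share of matches says nothing about blebbistatin.
Fhl1: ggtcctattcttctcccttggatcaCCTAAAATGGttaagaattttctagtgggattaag
Fhl2: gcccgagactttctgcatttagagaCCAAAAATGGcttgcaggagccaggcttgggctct

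Smaller median differences were seen in lists of adhesion and of YAP and TEAD targets. Of 29 genes for focal adhesions and integrins, 24 had a negative fitted change and 11 were lower in all pairs, with a fitted median of -0.14. Median differences were -0.03, -0.16 and -0.3 in series 2, 3 and 4, and in series 2 12 members were positive and 17 negative. Zyx, zyxin, which joins strained actin at adhesions, differed by -0.55, -0.45 and -0.92, and its blebbistatin arrays lay below all pulsed arrays. Of 25 YAP and TEAD genes, 18 had a negative change, 10 were lower and 3 higher in all pairs, with a fitted median of -0.14. Their median differences were -0.07, -0.23 and -0.24, and in series 2 10 members were positive and 15 negative. Ccn1, a matricellular protein and a widely used readout of YAP, was at 9.44, 9.18 and 9.78 in the paired pulsed and 8.82, 8.10 and 8.13 in the blebbistatin arrays, but at 7.51 in the pulsed array of series 1, below all of them (limma change -0.91, SE 0.37, adjusted p = 0.402). Ccn2, its relative, differed by -0.22, -0.38 and -0.51, Fjx1 by -0.55, -0.40 and -1.83, and Ankrd1, a stress-responsive cardiac cofactor, by -0.07, -0.01 and -0.15.

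The TEAD motif GGAATG was searched on both strands. It was in the promoters of 6 of the 16 list members with an entry, against 13.88% of all promoters. Of these 6 genes 4 were lower in all pairs, against 40.0% of the 25 list members tested. Ccn1 and Ccn2 are shown because they are the best known targets on the list, with the motif or its reverse complement in capitals. Ccn2 holds 3 matches at chr1:22624676-22624805, and Ccn1 holds 1 at chr2:237225772-237225827, both genes on the minus strand of GRCr8.
Ccn1: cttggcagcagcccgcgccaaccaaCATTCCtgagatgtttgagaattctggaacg
Ccn2: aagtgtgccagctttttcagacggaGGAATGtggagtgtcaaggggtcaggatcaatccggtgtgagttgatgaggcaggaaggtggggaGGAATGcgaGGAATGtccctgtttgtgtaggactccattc

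Matrix genes of the elastic fibre and matricellular list were mostly lower, with similar medians in each pair. Of 30 tested genes for elastic fibres, crosslinking enzymes and matricellular proteins, 28 had a negative fitted change and 19 were lower in all pairs, with 2 higher. Median differences were -0.60, -0.54 and -0.44 in series 2, 3 and 4, and the fitted median was -0.51 (-0.80 without the replicate block). Besides Mfap5 and Clec3b, both chosen above, Lox, the oxidase that crosslinks elastin and collagen, differed by -0.83, -1.05 and -0.97. Vcan, the proteoglycan versican, differed by -0.62, -1.06 and -1.57, and Eln, elastin, by -1.51, -0.54 and -0.75 (-1.29, -1.22 and -1.24 on a second probe set). Tnc, tenascin C, did not share a direction, at 0.46, -1.30 and -2.14. Thbs2, thrombospondin 2, and Efemp1, a fibulin, were the 2 higher members, with fitted changes of 0.40 and 0.24.

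Collagen genes were lower by smaller amounts. Of 27 tested, 25 had a negative change and 18 were lower in all pairs, with a fitted median of -0.25. Median differences were less even, at -0.08, -0.41 and -0.21 in series 2, 3 and 4. Col15a1, a collagen of basement membranes, was at 8.96, 9.04 and 10.51 in paired pulsed and 8.0, 7.90 and 9.02 in blebbistatin arrays (limma adjusted p = 0.137, and 0.0413 without series 1). P4ha1, a prolyl hydroxylase of procollagen, differed by -0.48, -0.76 and -0.60 with groups that did not overlap. Of the abundant fibrillar chains, Col3a1 differed by -0.45, -0.25 and -0.21. Col1a1 differed by -0.01, -0.17 and -0.14 on a probe set near the top of the scale, where differences are narrow, and by -0.16, -0.41 and -0.15 on a second at 12.79. Among 22 proteases and inhibitors 9 were lower and 3 higher in all pairs, with medians of -0.01, -0.25 and -0.22. Plat and Plau, the tissue and urokinase plasminogen activators, differed by -0.43, -0.74 and -0.65 and by -0.57, -0.50 and -1.26. Of 28 TGF-beta genes 12 were lower and 0 higher in all pairs, with Inhbb, an inhibin and activin subunit, at -0.61, -1.87 and -2.64 and Fstl1, follistatin-like 1, at -0.37, -0.55 and -0.38. Their median was -0.14, and -0.06 without series 4.

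Smooth muscle, fibroblast, endothelial and macrophage markers had mostly negative fitted changes, like the matrix and smooth muscle genes, some of which are on both kinds of list. Mesothelial and epicardial markers did not, with medians of 0.51, -0.03 and 0.15 in series 2, 3 and 4. Of the 7 tested, 3 were higher and 0 lower in all pairs. All 11 smooth muscle and pericyte markers tested had a negative fitted change, with median differences of -0.46, -0.53 and -0.71. Their summed level spanned 14.28 to 14.45 in pulsed and 13.66 to 13.91 in blebbistatin arrays, without overlap. That sum weighs abundant members most, among them Acta2 and Tagln of the actin list. Of the 11, 7 were lower in all pairs, while Des, Pdgfrb, Cspg4 and Notch3 did not share a direction. Pdgfrb differed by 0.13, -0.17 and -0.13. Fibroblast markers were negative in 10 of 12, with medians of -0.35, -0.29 and -0.15, and their summed level spanned 15.14 to 15.91 in pulsed and 14.93 to 15.67 in blebbistatin arrays. Within that list Dpt, dermatopontin, differed by -1.53, -0.82 and -1.49, while Pdgfra, a defining receptor of cardiac fibroblasts, differed by 0.04, 0.15 and 0.42.

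Endothelial markers were negative in 7 of 9, with summed levels of 10.65 to 11.23 in pulsed and 10.68 to 11.14 in blebbistatin arrays. Macrophage and leukocyte markers were negative in 9 of 10, with medians of -0.36, 0.01 and -0.71 and summed levels of 10.74 to 12.4 in pulsed and 10.63 to 11.65 in blebbistatin arrays. The macrophage gene Mrc1, a mannose receptor, differed by -0.58, -0.39 and -0.93, in the opposite direction to Cd74. Mrc1 was 1 of 5 markers of that list lower in all pairs. Among the 10 members tested, the pair of series 3 had 5 with a positive difference, like Cd74. The pairs of series 2 and 4 had 1 and 0. No marker list was at the floor of the table, and the part of changed cell shares in these results was not tested.

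**Figure D3:**
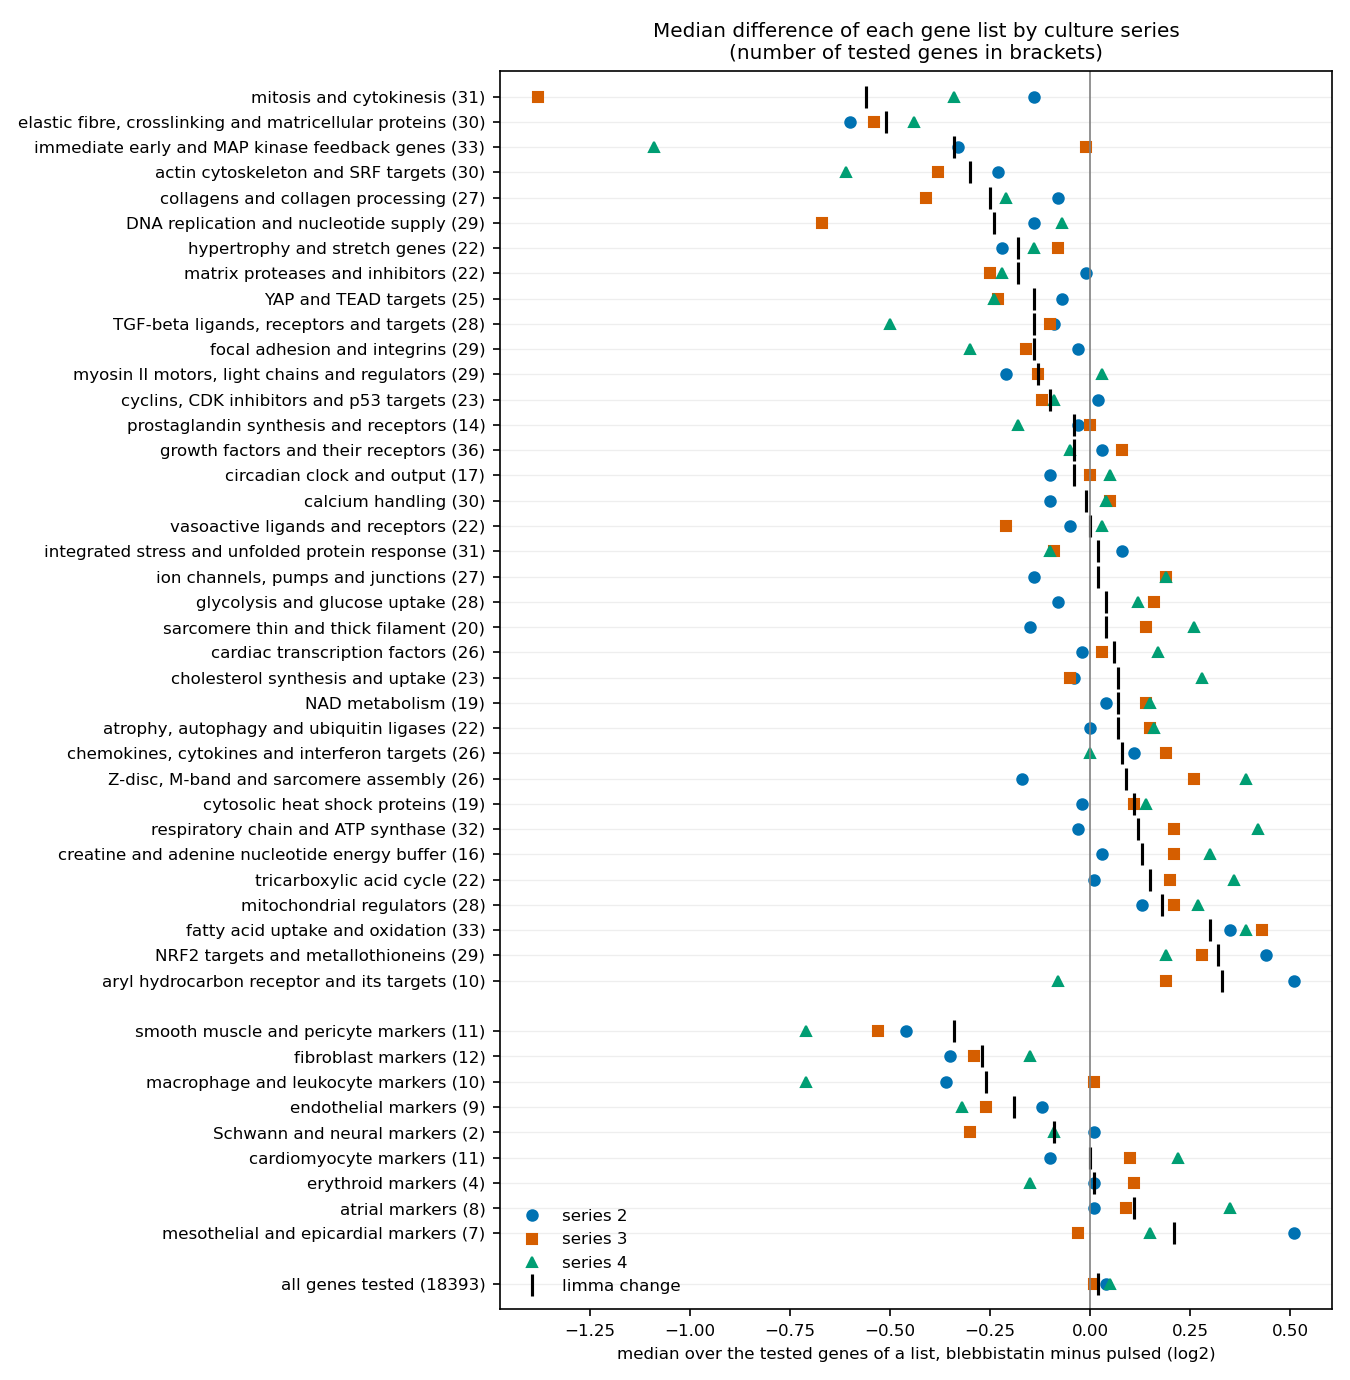
Median difference (blebbistatin minus pulsed, log2, horizontal axis) over the tested genes of 36 gene lists and 9 marker lists and over all genes, by culture series, with the median limma change as a black bar. Elastic fibre, actin, fatty acid and NRF2 lists are among those on 1 side of 0 in all 3 series. So are the mitosis and immediate early lists, but with 1 pair far from the others. The mitosis median is -1.38 in series 3 and -0.14 in series 2, and the immediate early median is -1.09 in series 4 and -0.01 in series 3.

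Cell division genes were lower mainly in series 3. Of 31 tested genes of mitosis and cytokinesis, 29 had a negative fitted change and 25 were lower in all pairs. Those lower by at least 1.5-fold numbered 0 in series 2, 27 in series 3 and 5 in series 4, against 3.65%, 4.01% and 4.97% of all genes. The median differences were -0.14, -1.38 and -0.34. The fitted median of -0.56 was -0.18 without series 3. Ccna2, cyclin A2, was at 9.14, 9.47 and 8.69 in the paired pulsed arrays and at 8.68, 7.84 and 7.97 with blebbistatin. The pulsed array of series 3 was the highest and its blebbistatin partner the lowest of these, and the groups did not overlap (limma change -0.82, SE 0.27, adjusted p = 0.333).

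The list's median level was 7.96, 8.34 and 7.98 in the pulsed arrays of series 2, 3 and 4 and 7.83, 7.18 and 7.76 with blebbistatin. Series 3 thus had both the highest pulsed and the lowest blebbistatin level. Ect2, an activator of RhoA at the cleavage furrow, where nonmuscle myosin II assembles, differed by -0.44, -1.67 and -0.39. Mki67, the proliferation marker, had -0.30, -1.66 and -0.42. Replication genes also had their lowest median difference in series 3, with 29 of 29 negative fitted changes, 16 lower in all pairs and medians of -0.14, -0.67 and -0.07. Mcm3, a subunit of the replicative helicase, differed by -0.45, -0.97 and -0.52, and Tk1, thymidine kinase, by -0.43, -1.0 and -0.45. Further probe sets of Tk1 differed by -0.64, -0.88 and -0.17 and by 0.29, -0.21 and 0.29. Without series 3 the fitted median of the replication list went from -0.24 to -0.09. Of 23 cyclins, inhibitors and p53 targets, 4 were lower and 4 higher in all pairs (17.4% each, against 15.1% and 24.1% of all genes). Plk2 of that list differed by -0.74, -0.80 and -2.59.

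Immediate early genes and feedback regulators of MAP kinases were lower mainly in series 4. There all 33 tested had a negative difference, 28 of them by at least 1.5-fold, against 9 in series 2 and 1 in series 3. Of all genes, 42.1% had a negative difference in series 4 and 4.97% were lower there by at least 1.5-fold. The median differences were -0.33, -0.01 and -1.09, and the fitted median of -0.34 turned to 0.04 without series 4. Fosl1, an AP-1 subunit, was at 9.35 in the pulsed array of series 4 and 5.07 in its partner, a difference of -4.29, against 0.47 and 0.07 in series 2 and 3. Its pulsed level in series 1 was 5.19, near the treated array of series 4. Fosb behaved alike, at 0.47, 1.31 and -3.88.

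Dusp1, a phosphatase of MAP kinases, was the member lower in each pair by the widest margin (-1.37, -0.61 and -0.97). Arc differed by -0.73, -0.48 and -2.08. The pulsed array of series 4 had the highest list median, 10.16, against 9.14, 8.10 and 8.16 in series 2, 3 and 1, and the blebbistatin arrays had 8.56, 8.18 and 8.54. The spread among pulsed arrays was thus at least as wide as the difference in series 4. The same pair held the widest differences of Ptgs2, inducible cyclooxygenase (-0.70, -0.32 and -4.14), and of Hbegf, an EGF receptor ligand released on stretch (-0.78, -0.50 and -3.26).

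**Figure D4:**
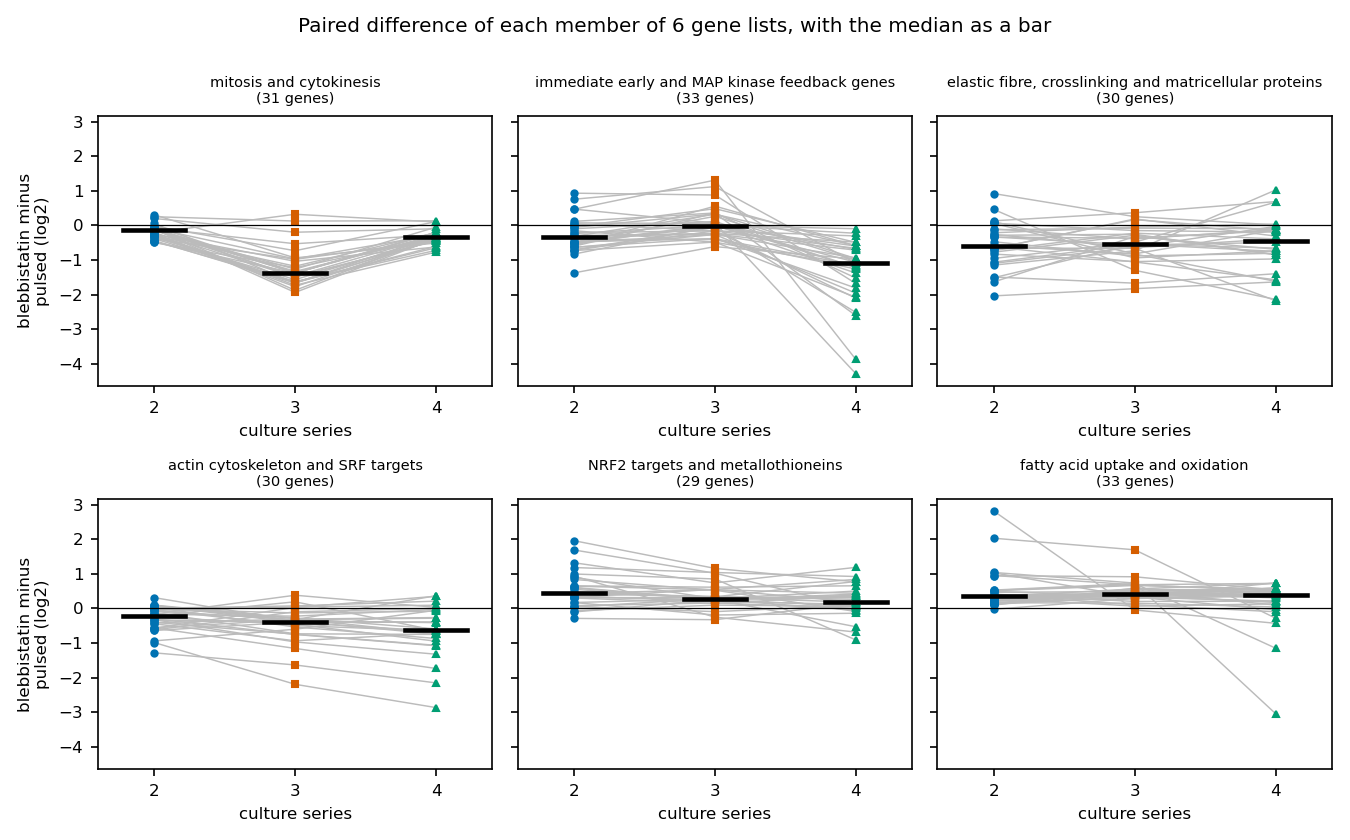
Paired difference (log2, vertical axis) of each tested member of 6 gene lists by culture series (horizontal axis), with grey lines joining a gene across series and black bars for the median. Mitosis genes dip together in series 3 (median -1.38), immediate early genes in series 4 (-1.09), while elastic fibre genes keep medians of -0.60, -0.54 and -0.44.

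Sarcomere genes differed in both directions. Of 20 sarcomere filament genes, 5 were higher and 3 lower in all pairs, with a median of 0.04. Myh6 was at 13.43, 13.33 and 13.38 in the paired pulsed arrays and 13.59, 13.49 and 13.51 with blebbistatin, without overlap (limma change 0.08, SE 0.13). That probe set lies near the top of the scale, and a second one, at 11.48, differed by 0.17, 0.98 and 0.97. Myh7, the beta heavy chain, was at 13.51, 13.04 and 12.98 in pulsed and 12.95, 12.57 and 12.78 in blebbistatin arrays, also without overlap (limma change -0.49, SE 0.15, adjusted p = 0.33), and differed by -1.16, -0.26 and -0.53 on a second probe set. Myl7, the atrial regulatory light chain, differed by 0.41, 0.56 and 1.37, and Tpm2, beta tropomyosin, by -0.44, -0.93 and -0.72 (-1.47, -0.40 and 0.33 on a second probe set). Acta1, skeletal alpha actin, differed in direction between pairs (-0.65, 0.43 and 0.51).

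Hypertrophy and stretch genes were lower in all pairs more often than higher, 9 of the 22 tested (40.9%) against 2. The natriuretic peptide genes Nppa and Nppb, which rise in stretched or failing heart muscle, differed by -0.54, -0.05 and -0.06 and by -0.60, -0.15 and -0.21. Edn1, endothelin 1, was at 8.20, 7.52 and 8.74 in paired pulsed and 6.37, 6.47 and 8.09 in blebbistatin arrays (limma change -1.13, SE 0.22, adjusted p = 0.199). Piezo1, a stretch-activated channel, had -0.21, -0.66 and -0.48, and Bdnf, a neurotrophin, -0.67, -0.22 and -0.02. Z-disc and M-band genes had medians of -0.17, 0.26 and 0.39, so their direction differed between series 2 and the others, and Trim54, a ligase of the sarcomere, had 0.34, 0.52 and 0.52.

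Of 30 calcium handling genes 8 were lower (26.7%) and 4 higher (13.3%) in all pairs, against 15.1% and 24.1% of all genes. Casq1, the skeletal calsequestrin, was at 10.77, 9.67 and 8.86 in the paired pulsed arrays and at 7.25, 8.21 and 8.12 with blebbistatin (limma change -2.0, SE 0.51, adjusted p = 0.289). The blebbistatin arrays lay below all pulsed arrays, but the difference ranged from -3.52 to -0.74. Atp2b4, a calcium pump of the plasma membrane, differed by -0.73, -0.52 and -0.55. Atp2a2, which refills the sarcoplasmic reticulum with calcium, differed by 0.03, 0.11 and 0.08, and Gja1, the main connexin of ventricular muscle, by 0.05, 0.05 and 0.09, although their fitted changes were -0.005 and -0.04 and turned positive, 0.072 and 0.062, in the fit of only the paired arrays.

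Among 27 channels, pumps and junction genes, 9 were higher and 1 was lower in all pairs, with a median of 0.02. Kcnip2, the subunit of the transient outward potassium channel, was at 7.85, 9.03 and 9.39 in paired pulsed and 9.77, 10.66 and 10.08 in blebbistatin arrays. Its groups did not overlap (limma change 1.32, SE 0.29, adjusted p = 0.247). A further probe set of Kcnip2, at 6.68, differed by 1.99, 2.08 and 0.9, but another, at 5.1, by 0.22, 0.04 and -0.66. Cacna1g, a T-type calcium channel, was the lower member, at -1.39, -0.66 and -0.64. Of 26 cardiac transcription factors 8 were higher (30.8%) and 4 lower (15.4%) in all pairs, against 24.1% and 15.1% of all genes. Among them Klf15, a regulator of metabolic rhythm in the heart, differed by 0.48, 0.51 and 1.21 and Prox1 by 0.60, 0.36 and 0.51.

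Genes of fatty acid use were higher with small, even differences. Of 33 tested, 32 had a positive fitted change and 26 were higher in all pairs, against 24.1% of all genes, and 0 were lower. Median differences were 0.35, 0.43 and 0.39, and the fitted median was 0.30. Acaa2, the mitochondrial thiolase, was at 11.23, 10.96 and 10.88 in the paired pulsed arrays and at 11.75, 11.64 and 11.61 with blebbistatin, above all pulsed arrays (limma change 0.55, SE 0.17, adjusted p = 0.313). Plin5, which coats lipid droplets at mitochondria, was at 7.01, 6.97 and 7.0 in pulsed and 7.96, 7.89 and 7.53 in blebbistatin arrays, again without overlap. Cpt1b, which admits long-chain fatty acids to mitochondria, differed by 0.47, 0.49 and 0.58. In contrast to the enzymes, Angptl4, an inhibitor of lipoprotein lipase, and Pdk4, which brakes pyruvate oxidation, were lower in series 4 (-3.04 and -1.15) and higher in series 2 and 3.

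Of 28 mitochondrial regulators, 17 were higher and 1 was lower in all pairs, with medians of 0.13, 0.21 and 0.27. Perm1, a muscle cofactor of mitochondrial genes, was at 8.01, 7.60 and 7.81 in paired pulsed and 8.67, 8.45 and 9.37 in blebbistatin arrays, without overlap. The tricarboxylic acid cycle and respiratory chain lists had 10 of 22 (45.5%) and 10 of 32 members (31.2%) higher in all pairs, against 24.1% of all genes. Their medians were 0.01 and -0.03 in series 2, 0.20 and 0.21 in series 3 and 0.36 and 0.42 in series 4. The fitted medians of 0.15 and 0.12 were 0.015 and 0.002 without series 4. Dlst differed by 0.17, 0.31 and 0.49, Cox8b by 0.18, 0.51 and 0.55, and Ogdh by 0.17, 0.26 and 0.60. Ogdh had an outlying pulsed array in series 4, at 10.95. Of 19 genes of NAD metabolism 9 were higher and 4 lower in all pairs, with Nmnat3, an adenylyltransferase that acts after Nmrk2, at 0.48, 0.51 and 0.58.

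Glycolysis genes showed no common direction, with 7 of 28 higher and 2 lower in all pairs. Aldoc, aldolase C, differed by -1.03, -0.37 and -0.41, and its pulsed array of series 1 stood far above the others, at 9.76. In the creatine and adenine nucleotide list, Gatm, which makes the precursor of creatine, was at 7.39, 7.12 and 6.66 in pulsed and 6.15, 6.02 and 5.88 in blebbistatin arrays, without overlap (limma change -1.05, SE 0.11, adjusted p = 0.065, and 0.0499 without series 1). It moved opposite to Adss1 of the same list, of which 7 of 16 members were higher and 2 lower in all pairs.

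Targets of NRF2, the transcription factor that answers oxidants and electrophiles, were higher. Of 29 tested, including metallothionein, 27 had a positive fitted change, 19 were higher and 0 lower in all pairs, and 17 had an unadjusted p under 0.05 in that direction (6.23% of all genes did). Median differences were 0.44, 0.28 and 0.19. Gsta4, a glutathione transferase for lipid peroxidation products, was at 9.27, 9.61 and 9.68 in the paired pulsed arrays and at 11.23, 10.77 and 10.45 with blebbistatin, without overlap (limma change 1.28, SE 0.21, adjusted p = 0.133). Osgin1, induced by oxidative stress, was at 7.44, 6.98 and 6.53 in pulsed and 8.62, 8.02 and 7.45 in blebbistatin arrays (limma change 0.98, SE 0.13, adjusted p = 0.0858, and 0.0332 without series 1). Its lowest blebbistatin array was just above its highest pulsed one.

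Gclm, the modifier subunit of glutamate-cysteine ligase in glutathione synthesis, differed by 0.65, 0.61 and 0.66. Hmox1, heme oxygenase 1, was higher in series 2 and 3 (1.69 and 1.02) and nearly level in series 4 (0.04). Srxn1, sulfiredoxin, and Gclc, the catalytic partner of Gclm, were higher in series 2 and 3 and lower in series 4 (-0.91 and -0.53).

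The core of the antioxidant response element is TGACNNNGC, searched on either strand. It was in 7 of the 26 promoters found for this list, against 12.17% of all promoters. All 7 genes were higher in all pairs, as were 65.5% of the 29 list members tested. The windows of Gclm, Gstp1, Me1 and Mt2A are shown because their match lies before the start and they differed by at least 0.25 in each pair, and capitals mark the match. Of the others, Sod2 differed by 0.04 in series 2, and the matches of Nfe2l2 and Gsta1 do not lie wholly before the start. They lie on GRCr8 at chr2:213031938-213031996 (Gclm, plus strand), chr1:210769733-210769791 (Gstp1, minus), chr8:96540378-96540436 (Me1, minus) and chr19:10838912-10838958 (Mt2A, minus).
Gclm: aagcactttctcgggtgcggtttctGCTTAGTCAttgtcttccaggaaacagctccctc
Gstp1: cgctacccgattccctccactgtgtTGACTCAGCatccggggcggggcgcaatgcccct
Me1: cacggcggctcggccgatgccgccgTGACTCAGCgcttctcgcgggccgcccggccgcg
Mt2A: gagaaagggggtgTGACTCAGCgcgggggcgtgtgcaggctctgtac
Gstp1, a glutathione transferase, differed by 0.90, 0.28 and 0.38, Me1, malic enzyme and a source of NADPH, by 0.33, 0.25 and 0.35, and Mt2A, the metallothionein, by 1.32, 0.74 and 1.19.

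Genes around the aryl hydrocarbon receptor, which binds planar aromatic compounds, moved both ways. Of 10 tested, 3 were higher and 2 lower in all pairs. Cyp1a1, its best known target, differed by 1.04, 0.36 and 0.97, and Aldh3a1 by 0.81, 0.39 and 1.72, while Aldh1a3 had -0.66, -1.76 and -0.65. Aldh3a1 pulsed levels alone spanned 4.58 to 8.16, and the groups overlapped. The receptor gene Ahr differed by 1.43, 0.54 and -0.69.

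In the integrated stress and unfolded protein list 12 of 31 members were lower in all pairs (38.7%, against 15.1% of all genes). The 8 members higher in all pairs (25.8%) were near the 24.1% of all genes. Ddit3, the transcription factor CHOP, was at 9.45, 9.77 and 9.37 in paired pulsed and 10.40, 10.38 and 10.50 in blebbistatin arrays, and Trib3, its target, was at 8.62, 9.0 and 9.55 against 9.61, 9.56 and 10.05. Both had blebbistatin arrays above all pulsed arrays, with limma adjusted p of 0.199 and 0.145. Several chaperones of the endoplasmic reticulum were lower in all pairs, among them Hsp90b1 (-0.49, -0.52 and -0.39), Pdia4 (-0.60, -0.62 and -0.44) and Hspa5 (-0.15, -0.24 and -0.33), named after their values were seen. Cytosolic heat shock genes had a median of 0.11, with Hspb8, a small chaperone of muscle, at 0.33, 0.25 and 0.42 and Dnajb4 at -0.37, -0.51 and -0.88. The pulsed array of series 1 stood apart for Dnajb4, at 10.56.

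Among 26 chemokines, cytokines and interferon targets 8 were higher (30.8%) and 4 lower (15.4%) in all pairs, against 24.1% and 15.1% of all genes. Their median was 0.08. The higher members were mostly interferon targets. Irf7, a transcription factor that amplifies the interferon response, differed by 0.62, 0.40 and 1.44, Ifit3 by 0.43, 0.55 and 0.58, and Cxcl10, a chemokine, by 1.29, 0.40 and 0.17. Ifit2 went the other way, at -0.19, -0.41 and -0.16. The chemokine genes Ccl2 and Cxcl1 differed in direction between pairs, at 0.73, -0.60 and -1.40 and at 0.09, 2.04 and -1.64.

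The core of the interferon-stimulated response element is GAAA, any 2 bases, then GAAA, searched on either strand. It was in 6 of the 20 promoters found for that list, against 3.77% of all promoters. Of these 6 genes 5 were higher in all pairs, against 30.8% of the 26 list members tested, which also include chemokines and cytokines. Among the 5, the smallest paired difference was only 0.05 for Vcam1 and 0.06 for Gbp2. Irf7 (chr1:205800058-205800117, minus strand), Ifit3 (chr1:241527257-241527316, plus) and Cxcl10 (chr14:15988816-15988857, plus) are shown as those described above, on GRCr8 with the match in capitals.
Irf7: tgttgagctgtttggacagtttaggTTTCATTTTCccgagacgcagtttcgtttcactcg
Ifit3: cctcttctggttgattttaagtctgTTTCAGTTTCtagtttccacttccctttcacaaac
Cxcl10: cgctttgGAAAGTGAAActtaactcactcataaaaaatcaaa

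Prostaglandin genes other than Ptgis moved unevenly. Of 14 tested, 6 were lower (42.9%) and 4 higher (28.6%) in all pairs, against 15.1% and 24.1% of all genes. Ptgfr, the receptor for prostaglandin F, was at 7.72, 7.25 and 7.5 in paired pulsed and 6.73, 6.60 and 6.80 in blebbistatin arrays, without overlap (limma change -0.82, SE 0.11, adjusted p = 0.0868). A second probe set of Ptgfr, at 6.22, differed by -1.13, -0.14 and -0.17. Ptgs1, the constitutive cyclooxygenase upstream of Ptgis, differed by 1.30, 0.32 and 0.04. Ptgr1, which inactivates prostaglandins, differed by 0.71, 0.67 and 0.38.

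In the remaining lists, counts of members with 1 direction in all pairs are to be read against 24.1% higher and 15.1% lower over all genes. Of 22 vasoactive ligands and receptors, 5 were lower (22.7%) and 1, the angiotensin converting enzyme gene Ace (0.40, 0.85 and 0.56), was higher in all pairs. Of 36 growth factors and receptors 8 were higher (22.2%) and 4 lower, with Fgf12 at 0.56, 0.85 and 1.18 and Vegfb at 0.27, 0.47 and 0.49. Further probe sets of Fgf12 differed by -0.12, -0.38 and 0.12 and by 0.22, 0.39 and 0.95. Among 17 clock genes 4 were lower (23.5%) and 0 higher, including Per2 (-0.66, -0.22 and -0.74) and Bhlhe40 (-0.19, -0.17 and -0.68). A second probe set of Per2 did not share a direction, at 0.37, 0.03 and -0.36. Of 22 atrophy and autophagy genes 9 were higher (40.9%) and 2 lower, with Mul1 at 0.27, 0.44 and 0.69 and Atg4b at 0.16, 0.26 and 0.16. Cholesterol genes were higher in all pairs in 3 of 23, among them Mvd (0.61, 0.19 and 0.49) and Srebf1 (0.02, 0.17 and 0.80), with a median of 0.28 in series 4 and near 0 in the others.

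The spread over genes was of like size within pairs and between arrays of 1 group. The SD of the difference over genes was 0.353, 0.316 and 0.403 within series 2, 3 and 4, 0.338 to 0.456 between pulsed arrays of different series and 0.335 to 0.533 between blebbistatin arrays. At least 2-fold higher were 150, 37 and 158 genes, and at least 2-fold lower 162, 234 and 302. As a description over genes, which share arrays and are not independent, the differences of series 3 and 4 correlated at r = 0.467, those of series 2 and 3 at 0.321, and those of series 2 and 4 at 0.157 (n = 18393). The sign was shared by 66.5%, 57.6% and 54.4% of genes.

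**Figure D5:**
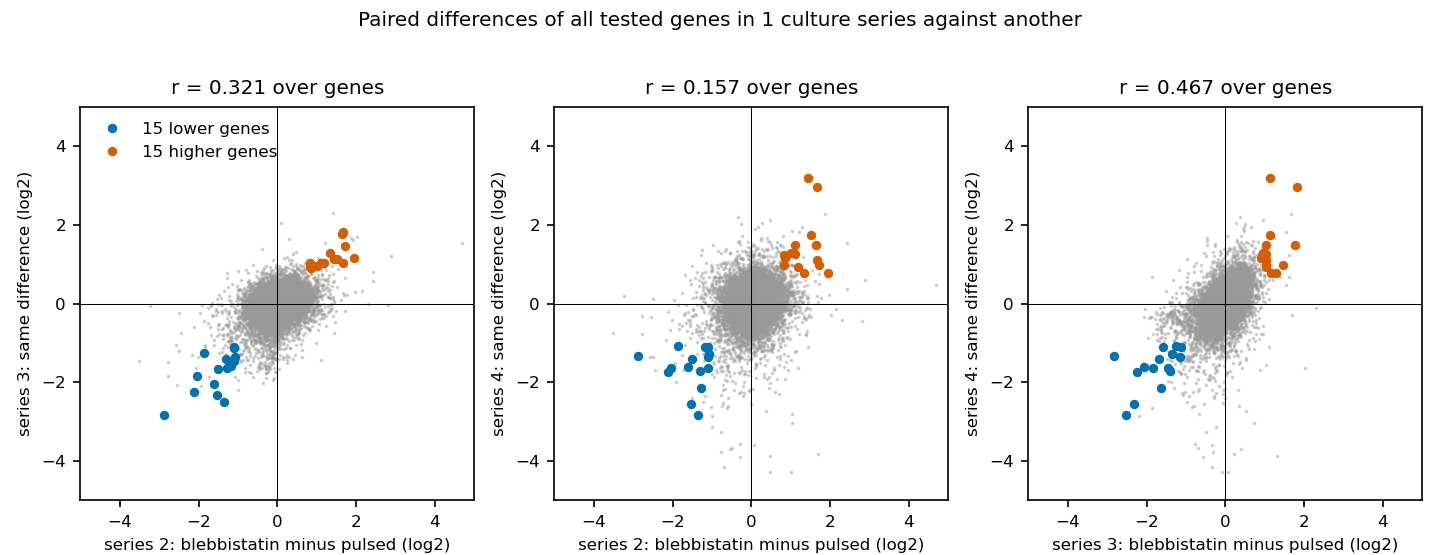
Paired difference of each tested gene (grey points, log2) in 1 culture series against that in another, with the 15 higher genes in orange and the 15 lower genes in blue. Series 3 and 4 are most alike (r = 0.467), and a tail of genes is far below 0 in series 4 alone, down to -4.29.

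Some genes had a wide difference in 1 pair and under 0.5 in size in both others. In series 2 these were Ucp3, a mitochondrial carrier under the control of fatty acids (2.81, against -0.04 and -0.43, but 0.43 in series 2 on a second probe set), Kcnn4, a calcium-activated potassium channel (2.17), and Spata2L (1.53). On the lower side were Islr2 (-3.24), Prss3b (-2.49) and Cpa6 (-1.97). Each of the 3 lower genes had its lowest level of the 7 pulsed and blebbistatin arrays in the blebbistatin array of series 2, at 3.80 for Islr2. In series 3 the lower ones were the kinases of dividing cells Pbk (-2.03), Ttk (-1.94) and Melk (-1.89), and the higher ones C4h3orf22 (0.96), Msx2 (0.93) and Lbp (0.92). In series 4 they were Fosl1, C9h6orf141 (-3.6) and Epha2, an ephrin receptor (-2.27), with LOC102553868 (2.21), Apol9a (1.94) and Rrad, a small GTPase that restrains calcium channels (1.73), on the higher side. C9h6orf141 and LOC102553868 each had 1 outlying pulsed array, in series 1 (6.20) and series 4 (5.74). Such differences have no replicate and were not tested.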

How the data were processed

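Total RNA was labelled with biotin and hybridised to Affymetrix rat arrays, per the labels' protocols. The deposited values are log2 levels per probe set and array, which the authors computed with PLIER (Affymetrix Expression Console 1.1), as the submitters' processing notes state. The base of the logarithm was taken from the lowest level of the table, 10.0 to 10.97 on the linear scale. The sources used here do not name the PLIER settings. At that floor lay 1990 to 2278 probe sets of an array. Of 31099 probe sets, 57 controls were set aside. GEO's platform annotation gave 1 symbol to 20826 of the others, several to 436 and none to 9780. Probe sets in the lowest 25% by mean level (under 5.09) were left out, and a gene was represented by its probe set with the highest mean, which gave 18393 tested, 11846 with 1 symbol. Probe sets of near-identical family members (Gsta1, Acot1) may read more than 1 transcript. No pseudocount was needed.

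Differences were taken within series. Tests used limma 3.58.1 in R 4.3.3 (two-sided, eBayes) on all 10 arrays with series as a fixed block, adjusted by Benjamini-Hochberg over all genes. The design text names 3 arrays per treatment, but 4 are labelled as pulsed. Deviations from group means of same-series pulsed and blebbistatin arrays correlated at 0.497, 0.476 and 0.411, and those of different series at -0.521 to 0.181. The fit was tested on simulated data.

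Genes named were those that passed, the 15 higher and 15 lower genes with the widest smallest paired difference, 2 per list by the same measure, 11 genes in any case, and 3 per pair and direction that stood out there alone. Others were picked as examples after their values were seen. The comparison and the 36 gene and 9 marker lists were chosen with earlier results of these data known. Promoters came from RefSeq (GRCr8), which had an entry for 9864 tested genes.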

Additional observations from a re-analysis of the deposited data

Results flagged for a closer look

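Of 117 named genes, 7 had a pulsed array that stood apart from the other 3 by Dixon's criterion, which chance alone meets in about 1 of 20 groups. The count of 7 is close to that share. Blebbistatin groups of 3 were too small for this criterion. The array was that of series 1 in 4 genes. For Plekhb1 it was at 6.02, against 6.88 to 6.97 in the others. For Dnajb4 it was at 10.56, against 11.37 to 11.48, and for C9h6orf141 at 6.2, against 8.41 to 8.7. For Aldoc it was the highest, at 9.76, against 7.57 to 7.84. In series 4 the pulsed arrays of Ogdh (10.95, against 11.22 to 11.24) and LOC102553868 (5.74, against 7.08 to 7.16) were lowest, so their differences in that pair rest on a low pulsed value. Tmem179 was lowest in series 2, at 6.57, against 7.35 to 7.5. Series 1 has no blebbistatin array and enters no paired difference.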

How the results depend on the processing

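The count of 3 passing genes in limma was 3 after quantile normalization or median centring and 2 with the mean of the probe sets. It was 0 with only the 6 paired arrays and the replicate block. Keeping all pulsed and blebbistatin arrays is the same fit, since the pulsed array of series 1 is then alone in its block. The count was 1 with no replicate block and 7 with the series as a random block. It was 0 with no filter on low values, 6 with a stricter filter on low values, 8 with a trended prior and 0 against a minimum fold change of 1.5. Leaving out 1 array gave 0 to 30 genes, and leaving out series 1, 2, 3 or 4, chosen after the data were seen, gave 30, 0, 0 and 1. With 0 passing in the 6 paired arrays, the smallest adjusted p was 0.0617. Over 22 settings Nmrk2 passed in 8, Ptgis in 9 and Clec3b in 7. These settings hold repeats, because an array left alone in its series block adds nothing to the fit. Leaving out either array of series 1, or the whole series, is thus the same fit, and so it is for series 4. Counts over settings in the next paragraph include these repeats. The 30 genes with 2-fold differences in all pairs were 30 to 32 under other scalings or with no filter, 21 with the stricter filter, 137 at 1.5-fold and 49 to 72 without 1 pair.

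The fitted changes of 4 genes near 0 reversed. Myh14 (-0.16) was 0.022 with no replicate block and -0.295 to 0.021 without 1 array. Acta1 (0.03) was -0.185 to 0.39 without 1 array, and -0.151 and -0.185 without series 3 and 4. Gja1 was 0.062 in the 6 paired arrays and without series 1, 0.082 with no block, 0.016 with a random block, 0.000 after quantile normalization and -0.12 to 0.062 without 1 array. Atp2a2 was 0.072 in the paired arrays, after quantile normalization and without series 1, 0.058 with no block, 0.023 with a random block, 0.176 with the mean of the probe sets and -0.088 to 0.072 without 1 array. For Gja1 and Atp2a2 the fits without series 1 gave the mean paired differences, 0.062 and 0.072, so their negative fitted sign depended on series 1. For Myh14 and Acta1 the cause was not tested. Of 2164 refitted gene changes 2033 kept direction and side of the threshold. Of the 99 genes refitted, all but Nmrk2, Ptgis and Clec3b missed the threshold in the main fit. Most of that count is thus genes that went on missing it, which says little about stability. The 42 refits that no longer passed all belonged to those 3 genes. Over all 45 lists, the fitted median of 19 turned sign under at least 1 setting (97 of 989 values), so lists with medians near 0 have no settled direction. Of the 13 lists with a fitted median of at least 0.2 in size, 2 turned sign, the immediate early list without series 4 (0.036) and the mesothelial markers (0.211) with no filter or with the mean of the probe sets (-0.046). With 3 pairs, small differences could not be told from the spread between cultures.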
